A study of Mus musculus with 9 samples.

Results

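Calpains are cysteine proteases that cut their substrates at a limited number of sites when calcium in the cell rises. The 8 calpain genes described here were Capn11, Capn1, Capn2, Capn5, Capn7, Capn10, Capn15 and Capns1, out of 14831 genes measured in mouse spinal cord by strand-specific RNA sequencing. Capn11 was chosen by its RPKM in these same libraries, under the threshold of the table in 1 group and above it in the others, so it is described with no test, and the other 7 were set beside it as members of its family. All 8 passed the filter on low values (at least 0.5 RPKM in at least 3 libraries, where RPKM is reads scaled to transcript length and to the depth of the library). Capn11 passed it through the 6 libraries of the control groups alone.

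The study asked what loss of C9orf72 function does in the spinal cord of the mouse. The 9 libraries came from wild-type female C57Bl/6 mice with an age of 10 weeks, in 3 groups of 3. The C9orf72 ASO group received 500 µg of an antisense oligonucleotide against mouse C9orf72 (number 571883), the control ASO group 500 µg of a control oligonucleotide (number 456835), and the saline group saline. The right lateral ventricle received 10 µl in each case, and the cord was taken 2 weeks later. The oligonucleotide lowers the transcript in whole tissue for these weeks and is no deletion of the gene. A single oligonucleotide against C9orf72 was used, so effects of lower C9orf72 and other effects of its sequence cannot be told apart. Whether its sequence matches Capn11 was not tested. Whether each library is a different animal is not in the labels. The p-values below set differences against the spread between these libraries, which may not be the spread between animals.

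In the classical calpains, Capn1 and Capn2 are the catalytic subunits, each of which pairs with the small regulatory subunit Capns1, and Cast (calpastatin) is their inhibitor. Capn1 and Capn2 are made in neurons and glia, where they cut cytoskeletal proteins. Capn5, Capn7, Capn10 and Capn15 are catalytic calpains that lack the calcium-binding penta-EF-hand domain of the classical ones. Capn11 has the classical domain order and is known in the mouse from the testis, in germ cells that form sperm. Of a list of 15 genes of the family, 11 had a row in the table; Capn3, Capn6 and Capns2 are the 3 beyond the 8 described, and Capn8, Capn9, Capn12 and Capn13 were not analysed here.

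The sequences upstream of 3 of these genes are shown because the genes take the extremes of the family: Capn11, the gene at the floor in 1 group, and Capn2 and Capns1, the most abundant catalytic gene and the small subunit. Each is the run of 250 bases that ends at the annotated start of the transcript, written 5′ to 3′ on the strand of the gene, from RefSeq (GRCm38.p6). Capitals mark CpG dinucleotides and the hexamer GGGCGG, the core of a GC box, searched on both strands; the CpG inside the hexamer is included in the counts of CpG.
Capn11, chr17:45659310-45659559, minus strand: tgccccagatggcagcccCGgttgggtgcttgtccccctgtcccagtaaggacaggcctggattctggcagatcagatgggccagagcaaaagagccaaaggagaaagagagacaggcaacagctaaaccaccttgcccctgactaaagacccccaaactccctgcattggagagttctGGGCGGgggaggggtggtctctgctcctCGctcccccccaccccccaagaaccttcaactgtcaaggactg
Capn2, chr1:182517611-182517860, minus strand: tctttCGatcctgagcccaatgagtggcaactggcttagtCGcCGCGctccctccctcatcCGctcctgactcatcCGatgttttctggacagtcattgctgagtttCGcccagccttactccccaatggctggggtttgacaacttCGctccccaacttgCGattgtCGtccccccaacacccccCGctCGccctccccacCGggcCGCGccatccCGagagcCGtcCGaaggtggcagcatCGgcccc
Capns1, chr7:30195154-30195403, minus strand: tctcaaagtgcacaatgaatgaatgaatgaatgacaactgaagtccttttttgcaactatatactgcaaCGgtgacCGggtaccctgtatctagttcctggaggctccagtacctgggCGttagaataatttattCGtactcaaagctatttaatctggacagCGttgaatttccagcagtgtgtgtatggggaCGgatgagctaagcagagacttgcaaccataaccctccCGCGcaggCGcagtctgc
The Capn11 window held 3 CpG and GGGCGG, with a GC content of 59.6%. The Capn2 window held 19 CpG and the Capns1 window 9, both with no GGGCGG. The first listed windows of Capn1, Capn10, Capn7 and Capn15 held 11, 16, 18 and 18 CpG, so that Capn11 had the fewest among the first windows of the 7 members in the table of promoters. A window of another annotated start of Capn15 also held 3. Capn5 was the member with no entry in it. Of all 32851 windows of this length, 37.8% held as few CpG as Capn11, 32.7% held GGGCGG on either strand, and 12.4% held TATAAA, which none of the first windows of the 7 members did.

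The target of the oligonucleotide was low in the libraries so labelled. C9orf72 was at 2.68, 3.40 and 3.12 RPKM in the C9orf72 ASO libraries, against 11.2, 11.7 and 10.6 RPKM in the control ASO libraries and 10.5, 11.4 and 11.5 RPKM in the saline libraries. The log2 fold change was -1.84 (SE 0.08) against control ASO with an adjusted p of 1.8e-06 in limma (Benjamini-Hochberg over 14430 genes), and -1.83 with an adjusted p of 1.9e-06 against saline. By the reads that single steps of the values stand for, the libraries held about 90.3 to 123.9 M reads. Correlations of log2 values were 0.9851 to 0.9900 between libraries of 1 group and 0.9834 to 0.9901 between groups. The markers fixed for neurons (8 of 8), astrocytes (6 of 6) and oligodendrocytes (6 of 6) of the labelled tissue, spinal cord, were above the floor in every library, and 4 of 5 motor neuron markers had a row and were above it too.

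Capn11 was under 0.5 RPKM in all 3 C9orf72 ASO libraries. The table gives every value under 0.5 RPKM as 0.1, so these values are bounds and not measurements. The gene was at 2.30, 3.36 and 1.60 RPKM in the control ASO libraries (2.42 ± 0.889, SD, n = 3) and at 0.758, 1.70 and 1.16 RPKM in the saline libraries (1.21 ± 0.475, SD, n = 3). All 6 libraries of the control groups were above the floor and all 3 C9orf72 ASO libraries below it, so the groups did not overlap. Of all genes tested, the libraries lay lower without overlap for 11.8% in C9orf72 ASO against control ASO and for 12.4% in C9orf72 ASO against saline, given as background since these contrasts chose Capn11. With the C9orf72 ASO libraries at no more than 0.5 RPKM, Capn11 was at least 4.84-fold lower than the control ASO mean and at least 2.41-fold lower than the saline mean. Put as shares, 0.5 RPKM is 20.7% of the control ASO mean and 41.4% of the saline mean, and how far below it the C9orf72 ASO libraries lay cannot be read from the table. In a bulk sample, fewer cells that express a gene and less RNA in each cell cannot be told apart.

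**Figure D1:**
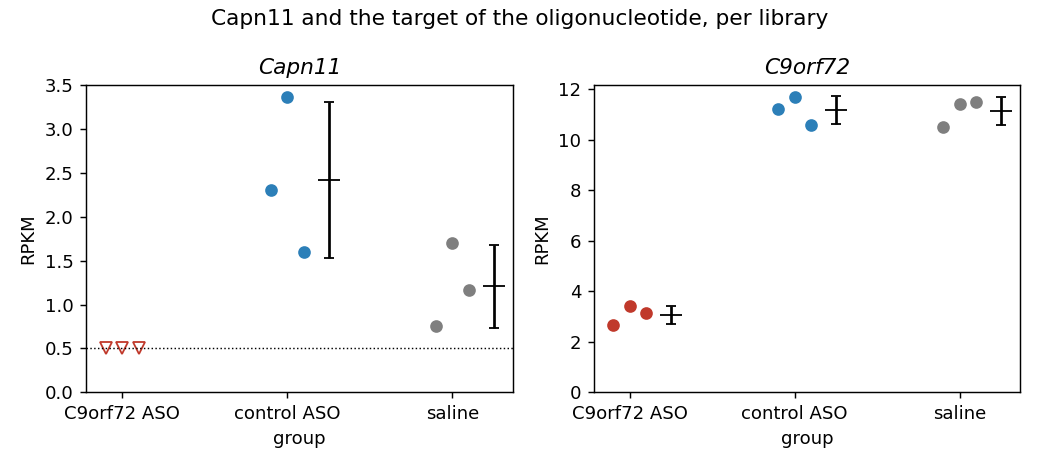
RPKM of Capn11 (left) and C9orf72 (right) in each library of the C9orf72 ASO, control ASO and saline groups. Filled points are libraries, open triangles at the dotted line are libraries under 0.5 RPKM, and the bars give the mean and SD of 3 libraries; Capn11 reached 3.36 RPKM in a control ASO library and was under 0.5 RPKM in all 3 C9orf72 ASO libraries.

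The control ASO mean of Capn11 was 2.0 times the saline mean. Within a group, the highest library was 2.1 times the lowest in control ASO and 2.25 times in saline. The control ASO library at 1.60 RPKM lay below the saline library at 1.70 RPKM, so these groups overlapped. The SD was 36.8% of the mean in control ASO and 39.4% in saline, wider than for Capn2 (2.91% and 1.56%) or Capn7 (0.717% and 2.00%). Capn2 and Capn7 lay at far higher levels. Nearer to Capn11 in level, Capn3 had 7.9% in control ASO and 13.3% in saline, and Capn6 had 1.59% and 11.9%. In the C9orf72 ASO libraries the SD of Capn6 was 26.2% of its mean, and that of Capn3 was 3.42%. For the longest annotated transcript of Capn11 (2591 bases), 0.5 RPKM corresponds to 117 to 161 reads at these depths, and the values above the floor to 210 to 911 reads. The floor and not the depth therefore set what could be seen of Capn11 in the C9orf72 ASO libraries.

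Few genes had this layout of values. Of the 14831 genes, 4 (0.027%) were at the floor in all 3 C9orf72 ASO libraries and above it in the other 6, namely Capn11, Kif26a, Mycn and Piezo1. Capn11 was the 1 gene of the 4 with a mean of 1.81 RPKM or more, its own mean, over those 6 libraries. Mycn, for example, lay close to the floor, with 0.685, 0.694 and 0.635 RPKM in the control ASO libraries and 0.710, 0.531 and 0.552 RPKM in the saline libraries. The same layout with the control ASO libraries at the floor was met by 3 genes (0.0202%), and with the saline libraries at the floor by 0. These counts describe the table, since Capn11 was chosen for its values.

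The 2 catalytic subunits of the classical calpains stood far apart in level. Capn2 was at 38.1, 37.7 and 37.3 RPKM in the C9orf72 ASO libraries, at 36.6, 36.9 and 34.9 RPKM in the control ASO libraries and at 37.3, 36.6 and 36.2 RPKM in the saline libraries. The C9orf72 ASO libraries were all above the control ASO libraries, by a margin that is small beside the level (log2 fold change 0.06, 95% interval -0.05 to 0.17, adjusted p = 0.588 in limma), and they overlapped the saline libraries. Capn1 was at 7.63, 7.58 and 8.81 RPKM in the C9orf72 ASO libraries, at 9.37, 7.96 and 7.91 RPKM in the control ASO libraries and at 8.58, 8.59 and 8.68 RPKM in the saline libraries. All 3 groups overlapped, and the log2 fold change was -0.07 (interval -0.25 to 0.11) against control ASO and -0.11 (interval -0.28 to 0.07) against saline. Capn2 stood at 4.73 ± 0.436 times Capn1 in the C9orf72 ASO libraries, 4.32 ± 0.371 times in the control ASO libraries and 4.26 ± 0.0887 times in the saline libraries (SD, n = 3 each).

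The small subunit Capns1 was the most abundant gene of the family, with 75.8, 70.7 and 76.5 RPKM in the C9orf72 ASO libraries. It was at 70.5, 67.6 and 68.4 RPKM in the control ASO libraries and at 80.9, 71.2 and 76.6 RPKM in the saline libraries. The control ASO libraries were the lowest of the 3 groups, below every C9orf72 ASO and every saline library. The log2 fold change of C9orf72 ASO over control ASO was 0.11 (interval -0.03 to 0.25, adjusted p = 0.448 in limma) and that of control ASO over saline -0.15 (interval -0.28 to -0.01, adjusted p = 0.794). Its ratio to the sum of Capn1 and Capn2 was 1.63 ± 0.0573 in the C9orf72 ASO libraries, 1.55 ± 0.0462 in the control ASO libraries and 1.68 ± 0.096 in the saline libraries (SD, n = 3 each).

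The inhibitor Cast was at 8.53, 9.24 and 8.38 RPKM in the C9orf72 ASO libraries, at 9.62, 8.70 and 8.57 RPKM in the control ASO libraries and at 7.84, 8.91 and 8.02 RPKM in the saline libraries. The groups overlapped, with a log2 fold change of -0.04 (interval -0.20 to 0.12) against control ASO and 0.08 (interval -0.08 to 0.24) against saline. Cast over the sum of Capn1 and Capn2 was 0.191 ± 0.0116 in the C9orf72 ASO libraries, 0.201 ± 0.00769 in the control ASO libraries and 0.182 ± 0.0136 in the saline libraries.

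Among the calpains without the penta-EF-hand domain, Capn7, which carries MIT domains and binds ESCRT-III proteins, was the steadiest. It was at 14.0, 13.9 and 13.3 RPKM in the C9orf72 ASO libraries, at 13.5, 13.4 and 13.6 RPKM in the control ASO libraries and at 13.3, 13.8 and 13.4 RPKM in the saline libraries. Its 9 values ran from 13.3 to 14.0 RPKM, and the interval of its log2 fold change was -0.08 to 0.13 against control ASO and -0.09 to 0.13 against saline. Capn5, a relative of the sex-determination protease TRA-3 of Caenorhabditis elegans, was at 6.20, 6.31 and 6.79 RPKM in the C9orf72 ASO libraries, at 7.41, 6.70 and 7.70 RPKM in the control ASO libraries and at 7.11, 8.11 and 6.71 RPKM in the saline libraries. Its means were lower in C9orf72 ASO than in either control group, with overlap in both (log2 fold change -0.17, adjusted p = 0.369 in limma against control ASO; -0.18, adjusted p = 0.358 against saline).

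Capn10, whose human counterpart has been studied as a type 2 diabetes gene, was at 4.70, 4.91 and 5.57 RPKM in the C9orf72 ASO libraries, at 5.50, 4.94 and 5.43 RPKM in the control ASO libraries and at 5.73, 5.52 and 5.75 RPKM in the saline libraries. The control ASO libraries lay below all saline libraries, and the C9orf72 ASO libraries overlapped both. Capn15, the mammalian relative of the Drosophila gene small optic lobes, was at 4.69, 5.26 and 6.28 RPKM in the C9orf72 ASO libraries, at 6.39, 5.38 and 6.65 RPKM in the control ASO libraries and at 6.85, 6.30 and 6.12 RPKM in the saline libraries. It had the lowest log2 fold change of the 7 other members in both comparisons of C9orf72 ASO, -0.18 (SE 0.11, adjusted p = 0.457 in limma) against control ASO and -0.25 (SE 0.11, adjusted p = 0.33) against saline, with overlap in both.

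C9orf72 ASO replicate 3 stood apart in these last genes. It held the highest value of its group for Capn1, Capn5, Capn10 and Capn15, and the lowest for Capn2 and Capn7. The GC content of the longest transcript was 57.1% for Capn1, 56.0% for Capn5, 57.9% for Capn10 and 61.1% for Capn15. It was 51.8% for Capn2 and 42.2% for Capn7, against a median of 49.7% over the genes tested. Across genes, the deviation of a library from the mean of all correlated with transcript GC content at r = -0.31, -0.32 and 0.22 in the C9orf72 ASO libraries, at 0.11, -0.19 and -0.01 in the control ASO libraries and at 0.36, 0.03 and 0.10 in the saline libraries, a description over genes that share a library. The log2 fold change of C9orf72 ASO over saline was -0.25 for Capn15, -0.18 for Capn5 and -0.16 for Capn10. With the trend in transcript length removed it was -0.20, -0.13 and -0.12 for the same genes, and with trends in length and GC content both removed, an alternative chosen after seeing the data, -0.06, -0.06 and -0.02. The part of GC content in these values was not tested by itself.

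None of the 7 other members passed the threshold of an adjusted p under 0.05 in limma in any comparison, where 0.0693% of all genes did in C9orf72 ASO against control ASO, 0.0693% in C9orf72 ASO against saline and 0.00693% in control ASO against saline. At an unadjusted p under 0.05 they numbered 0 of 7 against control ASO (14.1% of all genes), 1 of 7 against saline, which was Capn15, lower (14.0% in either direction, 10.2% lower), and 1 of 7 between control ASO and saline, which was Capns1, also lower (5.35% in either direction, 3.98% lower). Groups without overlap were found for 2 of 7 in C9orf72 ASO against control ASO, both higher (Capn2 and Capns1; 22.0% of all genes in either direction, 10.1% higher), for 0 of 7 against saline (18.0%), and for 2 of 7 in control ASO against saline, both lower (Capns1 and Capn10; 10.3% in either direction, 7.15% lower). With 7 genes, 1 gene is a large share, and nothing is read from these counts. The median log2 fold change of the 7 was -0.06, -0.11 and -0.04 in the 3 comparisons, against -0.01, -0.03 and -0.02 for all genes. The comparisons share libraries, so they are not separate evidence. The lowest and highest limits of the 95% intervals of the 7 were -0.42 (Capn15) and 0.25 (Capns1) against control ASO. Against saline they were -0.49 (Capn15) and 0.15 (Capn2). These intervals do not show that the genes were equal between groups.

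**Figure D2:**
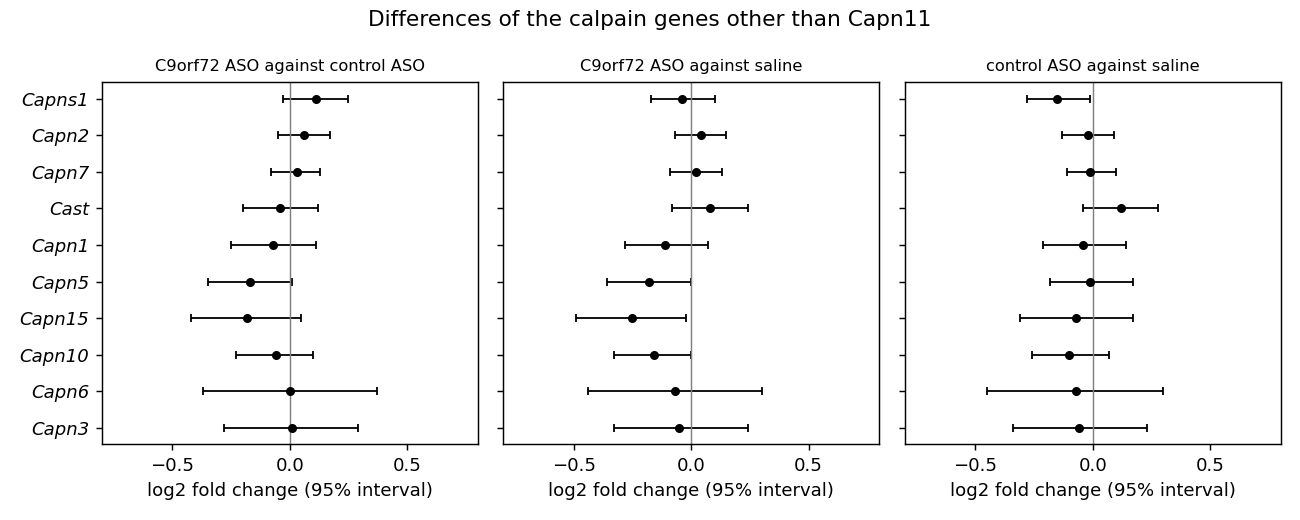
Log2 fold change, with its 95% interval, of the tested calpain genes other than Capn11 and of Cast, in C9orf72 ASO against control ASO, C9orf72 ASO against saline and control ASO against saline (limma, n = 3 libraries per group, genes from high to low level). The values lie between -0.25 and 0.12, and the Capn15 and Capns1 intervals that leave out 0 belong to adjusted p values of 0.33 and 0.794.

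In order of mean level over the 9 libraries, Capns1 (73.1 RPKM) came first, then Capn2 (36.8), Capn7 (13.6), Capn1 (8.34), Capn5 (7.0), Capn15 (5.99), Capn10 (5.34) and Capn11, with Cast at 8.65. Capns1, Capn2 and Capn7 did not overlap with the gene next in order. Capn1 and Capn5 overlapped in range although Capn1 was the higher in 9 of 9 libraries, and Capn15 was above Capn10 in 8 of 9. Capn11 did not overlap with Capn10, whose lowest value was 4.70 RPKM. Below that lay Capn6, a calpain that lacks the catalytic cysteine (0.806 to 1.37 RPKM), and Capn3, the calpain of skeletal muscle (0.940 to 1.23 RPKM). Their C9orf72 ASO, control ASO and saline libraries overlapped, with log2 fold changes of 0.00 and 0.01 against control ASO. Capn3 shares exon sequence with its neighbour Ganc on the same strand, so part of its reads is uncertain. Capns2, a small-subunit gene related to Capns1, was above the floor in a single library, a saline one at 0.521 RPKM.

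**Figure D3:**
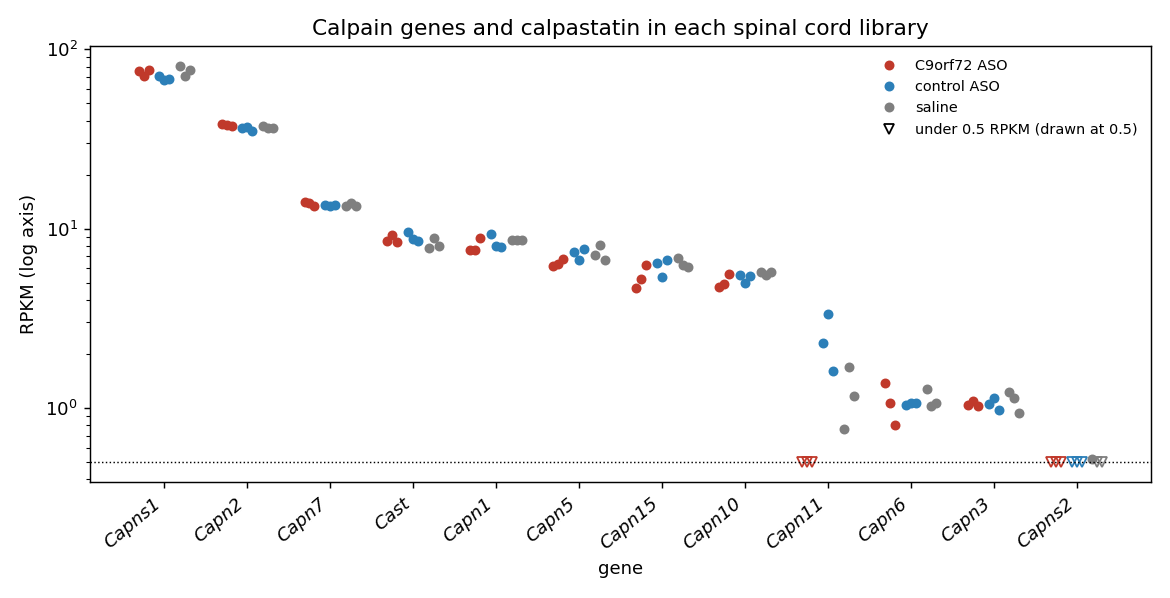
RPKM (log axis) of 11 genes of the calpain family and Cast in each library of the C9orf72 ASO, control ASO and saline groups, ordered by mean level. Open triangles stand for values under 0.5 RPKM and are drawn at that threshold; Capn11 is the 1 gene whose C9orf72 ASO libraries are all triangles while all other libraries are points.

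The summed level of the 9 large-subunit calpain genes with a row, Capn6 included, was 78.5 ± 1.24 RPKM in the C9orf72 ASO libraries, 81.2 ± 1.69 RPKM in the control ASO libraries and 81.7 ± 1.45 RPKM in the saline libraries, with floor values taken as 0 (SD, n = 3 each). Without Capn11 the sums were 78.5 ± 1.24, 78.8 ± 1.77 and 80.5 ± 1.39 RPKM in the same order of groups. Capn11 made up 2.76%, 4.16% and 2.00% of the sum in the control ASO libraries and 0.922%, 2.06% and 1.45% in the saline libraries. Capn2 made up 48.0 ± 1.23% in the C9orf72 ASO libraries, 44.5 ± 1.02% in the control ASO libraries and 44.9 ± 0.668% in the saline libraries. The sum for these shares includes Capn11, which was chosen for its low C9orf72 ASO values. Part of the higher Capn2 share in C9orf72 ASO follows from that choice. No share was taken over the sums without Capn11.

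The pattern of each gene over the 9 libraries was set beside that of Capn11 by the root mean square difference between their log2 values, each centred on its own mean, with floor values at 0.5 RPKM. C9orf72 itself was the nearest of all tested genes at 0.541, followed by S100a8 (0.676), Mir338 (0.677), S100a9 (0.694) and Snora81 (0.708). A gene with no variation would lie at 0.977, and the median of all genes was 0.98. The calpains lay around that median, the nearest being Capn5 at 0.915 (rank 1621) and the farthest Capns1 at 1.03. The likeness to C9orf72 rests on the split between C9orf72 ASO and the other libraries that Capn11 was chosen for, and it is a description.

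**Figure D4:**
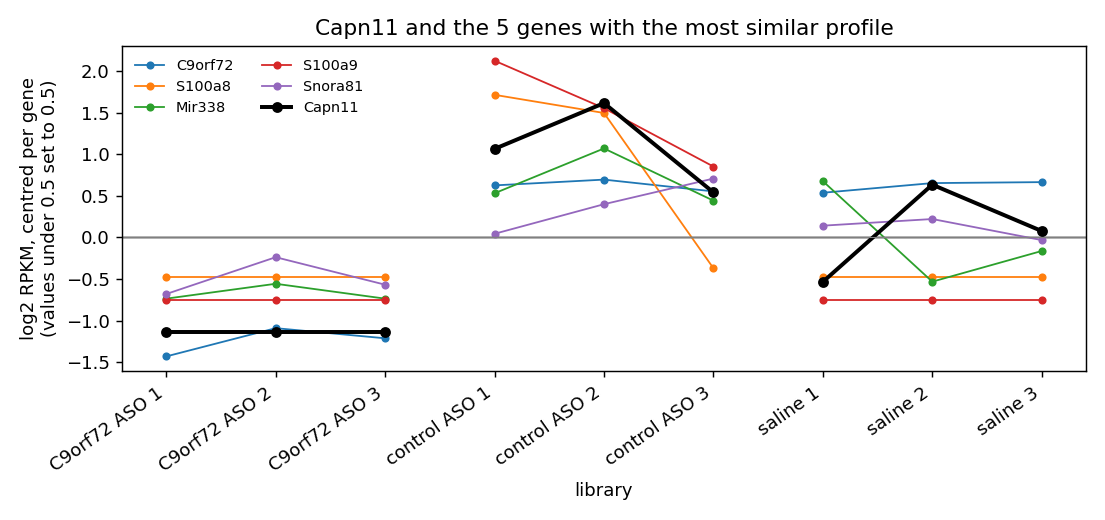
Log2 RPKM of Capn11 and of the 5 genes nearest to it, centred per gene, in the 9 libraries (values under 0.5 RPKM set to 0.5; lines join libraries of 1 group, which have no order). Capn11 and C9orf72 are low in all 3 C9orf72 ASO libraries, while S100a8 and S100a9 are above 0.5 RPKM in the control ASO libraries alone.

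S100a8 and S100a9, calcium-binding proteins abundant in neutrophils, were under 0.5 RPKM in every C9orf72 ASO and every saline library. Both passed the filter on low values through the control ASO libraries alone, so no test of them is given. S100a9 was at 3.68, 2.48 and 1.52 RPKM and S100a8 at 2.28, 1.96 and 0.537 RPKM in the control ASO libraries, the group in which Capn11 was highest. The neutrophil and red blood cell list (8 of 14 markers with a row) summed to 750.4 to 1263.8 RPKM in the C9orf72 ASO libraries, 725.8 to 2928.4 RPKM in the control ASO libraries and 852.1 to 934.5 RPKM in the saline libraries. In this list Hba-a1, a haemoglobin gene, was at 1055.6, 376.7 and 254.5 RPKM in the control ASO libraries. The sums therefore say little about S100a8 and S100a9, which were at 3.68 RPKM or less. The part of the list in the Capn11 values was not tested. Of 12 male germ cell markers, 4 had a row and 1 was above the floor in every library. The mice were female, so nothing about a source in male germ cells can be read from these values. Their sum was 1.52 to 2.35 RPKM in the C9orf72 ASO libraries, 1.19 to 2.32 RPKM in the control ASO libraries and 1.19 to 2.43 RPKM in the saline libraries, with overlap between all groups; Prm1, Prm2, Tnp1 and Tnp2 were not analysed here. Sycp3, a protein of the meiotic chromosome axis, was at 0.897, 0.945 and 0.592 RPKM in the C9orf72 ASO libraries, at 0.549, 0.598 and 0.581 RPKM in the control ASO libraries and at 0.555 RPKM in 1 saline library, with the other 2 saline libraries under 0.5 RPKM. The C9orf72 ASO libraries overlapped the control ASO libraries and lay above all saline libraries (adjusted p = 0.199 in limma). The margin was narrow, from 0.555 RPKM in the saline library to 0.592 RPKM. The fit enters the 2 saline values under 0.5 RPKM as 0.1 RPKM, so its p-value rests on bounds. Of all genes, 18.0% had no overlap against saline in either direction. Of the 3 germ cell markers tested, 2 had a positive log2 fold change in each of these comparisons. The other was at -0.08 against control ASO and at -0.48 against saline. The 6 microglial markers summed to 116.0 to 126.4 RPKM in the C9orf72 ASO libraries, 96.0 to 100.3 RPKM in the control ASO libraries and 91.4 to 109.3 RPKM in the saline libraries, and the 6 endothelial markers to 36.3 to 39.9, 34.0 to 47.2 and 47.0 to 59.1 RPKM in the same groups. Their part in the calpain values was not tested.

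None of the tested genes near Capn11 on chromosome 17 passed the threshold in any comparison. The C9orf72 ASO libraries lay lower without overlap for Slc29a1 against both control groups and for Tmem63b against saline. Of all genes, 11.8% did so against control ASO and 12.4% against saline. For Mrpl14 they lay higher without overlap against control ASO (10.1% of all genes). On one side the nearest named gene, Mymx, had no row. Slc29a1, a nucleoside transporter gene that comes after it, had a log2 fold change of -0.10 (adjusted p = 0.521 in limma) in C9orf72 ASO against control ASO. On the other side it was -0.06 for Tmem63b (adjusted p = 0.641), an ion channel gene, and 0.25 for Mrpl14 (adjusted p = 0.388), a mitochondrial ribosomal protein gene. The exons of Capn11 overlap no other annotated gene on either strand. Those of Capn1, Capn2, Capn7, Capn10, Capn15 and Capns1 overlap a gene on the opposite strand. The libraries kept strand, but whether the counting used it is not given in the sources used here, so reads of such partners may be included.

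Of 24 genes for calpain substrates, none passed the threshold in limma in any of the 3 comparisons. At an unadjusted p under 0.05, 1 was higher and 5 lower in C9orf72 ASO against control ASO and likewise 1 and 5 in C9orf72 ASO against saline, where 14.1% and 14.0% of all genes were past it in either direction; in control ASO against saline the count was 0 (5.35%). In C9orf72 ASO against control ASO the median log2 fold change was -0.11 against -0.01 for all genes, and 20 of the 24 values were negative, as were 54.1% of those of all genes. With the trend in transcript length removed the median was -0.03, with 16 of 24 negative. Against saline the median was -0.03, the same as for all genes, with 19 of 24 negative (58.7% of all genes). With the length trend removed it was 0.01, with 11 of 24 negative. In control ASO against saline the median was 0.06, with 16 of 24 positive, where 57.4% of all genes were negative. Dpysl2, a microtubule-binding protein of growing axons, averaged 178.6 ± 22.6 RPKM in the C9orf72 ASO libraries and 249.2 ± 42.1 RPKM in the control ASO libraries (SD, n = 3 each; log2 fold change -0.47, adjusted p = 0.234 in limma). Vim, an intermediate filament protein of glia and vessels, averaged 56.4 ± 5.43 RPKM in the C9orf72 ASO libraries and 43.8 ± 3.87 RPKM in the control ASO libraries (log2 fold change 0.36, adjusted p = 0.247).

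Of 26 genes of calcium entry and clearance, none passed the threshold in limma in any comparison. At an unadjusted p under 0.05, 0 were higher and 4 lower in C9orf72 ASO against control ASO (14.1% of all genes in either direction), 0 and 5 in C9orf72 ASO against saline (14.0%), and 1 and 0 in control ASO against saline (5.35%). All of those past it in both comparisons of C9orf72 ASO were lower, and 10.2% of all genes were past it and lower against saline. With 26 genes nothing is read from these counts. In C9orf72 ASO against control ASO 24 of the 26 values were negative (54.1% of all genes), with a median of -0.11. With the length trend removed, 16 were negative and the median was -0.03. Against saline 21 of the 26 were negative (58.7% of all genes), with a median of -0.10. With the length trend removed, 16 were negative and the median was -0.02. Across genes, the log2 fold change correlated with log2 transcript length at r = -0.26 in C9orf72 ASO against control ASO and -0.07 against saline. With transcript GC content r was -0.1 and -0.29 in the same order. With length and GC trends both removed, an alternative chosen after seeing the data, 14 of 26 were negative against control ASO (median -0.02). Against saline 12 of 26 were negative, with a median of 0.01. Examples are Mcu, the pore of the mitochondrial calcium uniporter (log2 fold change -0.21, adjusted p = 0.267 in limma), and Cacna1c, an L-type calcium channel (-0.27, adjusted p = 0.27).

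Of 8 caspases, cysteine proteases of which many act in cell death, none passed the threshold in limma in any comparison. At an unadjusted p under 0.05, 0 were higher and 2 lower in C9orf72 ASO against control ASO (14.1% of all genes in either direction), 2 higher and 1 lower in C9orf72 ASO against saline (14.0%), and 0 higher and 1 lower in control ASO against saline (5.35%). In C9orf72 ASO against control ASO 6 of the 8 values were positive, with a median of 0.10 and a range of -0.19 to 0.25. The 2 with the smallest p were among the negative ones, Casp9 at -0.17 (adjusted p = 0.287) and Casp2 at -0.19 (adjusted p = 0.333). Against saline 4 of 8 were positive, with a range of -0.22 to 0.45 and a lowest adjusted p of 0.173.

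None of 4 penta-EF-hand relatives of Capns1 passed the threshold in limma in any comparison. At an unadjusted p under 0.05, 1 was higher in C9orf72 ASO against control ASO (14.1% of all genes in either direction), and 1 was higher and 1 lower in each of C9orf72 ASO against saline (14.0%) and control ASO against saline (5.35%). Pdcd6, which binds ESCRT proteins, was at 0.12 against control ASO (adjusted p = 0.344). Pef1, its partner, was at -0.07 against control ASO (adjusted p = 0.641) and at -0.24 against saline (adjusted p = 0.191), and it was at -0.18 in control ASO against saline (adjusted p = 0.794). Its saline libraries lay above those of both oligonucleotide groups without overlap. Of all genes, 12.4% were lower without overlap in C9orf72 ASO against saline and 7.15% in control ASO against saline. These comparisons share the saline libraries. Both ESCRT-III partners of Capn7 with a row, Ist1 and Chmp1a, had log2 fold changes of -0.07 and 0.07 in C9orf72 ASO against control ASO.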

How the data were processed

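Spinal cord RNA was sequenced in 9 libraries. The submitters' processing notes name cutadapt 1.2.1, GSNAP and mm9 (per the labels). The sources used here do not name what counted the reads or on which annotation. The authors deposited 1 table of 14831 genes, read as RPKM from its values because its header names no unit, with values under 0.5 given as 0.1 (5160 values). Symbols matched 14321 IDs. Depth was estimated from value steps of short genes, where 63.5% to 76.2% of values lay within 0.1 of a whole read.

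Groups were compared by limma 3.58.1, run in R 4.3.3 (with trend, and robust by statmod 1.5.0), with all libraries fitted together on the scale of log2(RPKM + 0.1), for 14430 genes at or above 0.5 RPKM in at least 3 libraries, with Benjamini-Hochberg adjustment and a threshold of 0.05. The pseudocount draws the fold changes of low genes towards 0. Values at the floor enter as 0.1 RPKM, so fold changes that rest on them can be too large or too small. Replicates were numbered in accession order. Genes named were the family, Cast, the target, the 5 nearest patterns, the Capn11 neighbours and, from the lists, members past the threshold or else the smallest p against control ASO; Mycn, Kif26a and Piezo1 were singled out after their values were seen. The members and lists were chosen with earlier results of these data known. Alternatives were pseudocounts, filters, scaling, the samples fitted, length and GC trends, and leaving out each library. Promoter windows are RefSeq on GRCm38.p6, and transcripts, exon overlaps and neighbours come from GRCm38 annotation; no coordinates were converted to mm9.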

Additional observations from a re-analysis of the deposited data

How the results depend on the processing

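The fitted log2 fold change of Capn11 moved with the treatment of floor values. It was -3.59 against control ASO and -2.64 against saline, with floor values entered as 0.1 RPKM. With floor values raised to 0.5 RPKM it was -2.01 and -1.06, the smallest drops on this scale that values under 0.5 RPKM allow. It was -2.24 and -1.47 with a pseudocount of 0.5, and -1.60 and -0.98 with a pseudocount of 1. The settings that enter floor values as 0.1 RPKM give no bound. No other calpain gene, nor Cast, passed the threshold in any of 564 values of the alternatives, the lowest adjusted p in limma being 0.101 (Capn15 against saline without C9orf72 ASO replicate 3). The cause of the changes below was not tested.

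Of all genes, 10 passed against control ASO, 16 with no filter, 19 without trend and robust estimation, and 7 to 27 with a library left out. Against saline 10 passed, 4 in a fit of only the groups compared, 25 with length and GC trends removed, and 4 to 54 with a library left out; leaving out C9orf72 ASO replicate 3 gave the 27 and the 54, control ASO replicate 3 gave 16, and each of saline replicate 2 and C9orf72 ASO replicates 1 and 2 gave 4. In control ASO against saline 1 passed in limma (772 at an unadjusted p under 0.05), 5 with no filter, 0 with only genes at or above 1 RPKM in every library, 9 without trend and robust estimation, 2 with the length trend and 3 with length and GC trends removed, and 0 to 2 with a library left out, 0 with any 1 of the control ASO libraries left out and 2 without saline replicate 1.

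Sign changes were of values near 0. With the length trend removed these were Cast at 0.02 against control ASO, and in control ASO against saline Capn1 at 0.00, Capn2 at 0.01 and Capn5 at 0.00. With length and GC trends removed, which was chosen after seeing the data, they were Capn6 at 0.00 against control ASO, Capn1 at 0.02, Capn7 at -0.01 and Capns1 at 0.05 against saline, and in control ASO against saline Capn1 at 0.04, Capn2 at 0.03 and Capn5 at 0.04. With median scaling, control ASO against saline gave 0.02 for Capn5 and 0.02 for Capn7. With a library left out, the ranges of those that changed sign in C9orf72 ASO against control ASO were Capn1 -0.14 to 0.01, Capn3 -0.05 to 0.06, Capn6 -0.17 to 0.18, Cast -0.08 to 0.01. The ranges in C9orf72 ASO against saline were Capn3 -0.15 to 0.03, Capn6 -0.24 to 0.11, Capns1 -0.08 to 0.01, and those in control ASO against saline were Capn1 -0.12 to 0.00, Capn2 -0.04 to 0.00, Capn3 -0.15 to 0.02, Capn5 -0.06 to 0.07, Capn6 -0.13 to 0.01, Capn7 -0.02 to 0.01, Capn15 -0.13 to 0.02. No paired analysis was made because the labels give no pairing between the groups. The replicate numbers were given here in accession order and pair nothing.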
